A study of Mus musculus with 6 samples.

Results

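The 10 transcription factor genes Pax5, Ebf1, Bach2, Spib, Bcl6, Irf8, Ikzf1, Ikzf3, Pou2af1 and Ets1 were followed in splenic B-cells with and without the enhancers of the immunoglobulin heavy chain (IgH) locus. They were chosen by name for their known part in B-cell identity, and they are 10 of the 46963 genes in the count table. RNA was sequenced from CD43-depleted splenic B-cells of wt mice, of Eμ-deficient mice, which lack the enhancer at the 5′ end of the IgH constant genes, and of 3′RR-deficient mice, which lack the regulatory region at their 3′ end. All were mice of a 129 background between 8 and 12 weeks old, of both sexes. The Eμ deletion is named EμMAR in the methods. For each genotype there was 1 resting library and 1 library of cells stimulated for 2 days with 5 μg per ml lipopolysaccharide (LPS), a bacterial product that drives B-cells to divide and to become antibody-secreting cells, so that 6 libraries were compared. Each library was a pool of 2 mice, and by the labels resting cells also spent 2 days in medium, whereas by the methods of the study they were taken before stimulation. A ratio of genotypes at rest or after LPS thus compares 2 single libraries, with no replicate check.

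A B-cell keeps its identity through a network of DNA-binding proteins. Ebf1 and Pax5 commit progenitors to the lineage and then hold B-cell genes active, Spib and Ets1 are members of the Ets family, Irf8 is an interferon regulatory factor that binds together with Ets proteins, and Ikzf1 (Ikaros) and Ikzf3 (Aiolos) are zinc finger proteins of 1 family. Pou2af1 (also named OCA-B or Bob.1) is the coactivator of the octamer-binding factors. Bach2 and Bcl6 are repressors that hold back Prdm1, which encodes Blimp-1, the factor that turns off the B-cell program in plasma cells.

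Genes received between 9111974 and 21998587 counts per library, and levels are given as CPM, which are counts relative to the library size after TMM scaling in edgeR. All 10 genes passed the filter on low counts (10 or more in 2 or more libraries) and had between 61 counts (Bcl6, LPS-stimulated Eμ-deficient) and 11835 counts (Ets1, resting wt) in a library. The 6 B-cell marker genes, among them Ms4a1, Cd79a and Cd74, were detected in every library and summed to between 3985 and 5295 CPM in resting and between 2058 and 2563 CPM in LPS-stimulated libraries. Cd74 was the highest of them in every library and weighs most in these sums. In wt the log2 ratios of the markers with LPS ran from -1.88 for Cd74 to 0.85 for Ms4a1. The resting Eμ-deficient library had the highest sums of markers of other cells. Its 7 erythroid genes summed to 19640 CPM against 3374 CPM in wt and 3811 CPM in 3′RR-deficient resting cells, its 9 myeloid genes to 357 CPM against 153 and 152 CPM, its 9 T-cell genes to 57.3 CPM against 32.4 and 38.2 CPM, and its 6 NK and plasmacytoid dendritic cell genes to 28.0 CPM against 13.7 and 10.4 CPM. After LPS these sums lay between 55.9 and 665 CPM (erythroid), 22.5 and 35.1 CPM (myeloid) and 6.28 and 21.6 CPM (T-cell), and among the genes at 0 were Cd3e, Cd8a, Thy1, S100a9 and Mpo in wt, Ngp and Klf1 in Eμ-deficient, and Cd8a, Cd14, Ngp and Klf1 in 3′RR-deficient cells. Of the 7 erythroid genes, 6 were called higher in Eμ-deficient libraries in the fit described below. The 35 spike-in RNAs with at least 100 counts in every library, which should keep a constant ratio to one another, scattered most between the LPS-stimulated 3′RR-deficient and wt libraries, with an SD of the log2 ratio around its median of 1.27 against 0.16 between the resting libraries of the same genotypes. For Eμ-deficient against wt this SD was 0.48 in resting and 0.44 in LPS-stimulated cells.

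Sequence upstream of a transcription start is shown for the gene that rose with LPS (Pou2af1), for one that fell (Bcl6) and for the gene with the largest ratio between genotypes (Bach2). Each run is the 250 bases before a RefSeq start on GRCm38.p6, 5′ to 3′ on the strand of the gene, and the capitals mark matches to any of 8 short patterns searched on both strands. The patterns were ATGCAAAT (octamer), CCCNNGGG (Ebf), CGGAAG (Ets), TGGGAA (Ikaros), CAGGTG (E-box), GAAA and GAAA with any 2 bases between them (interferon regulatory factor), GGAA and GAAA with any 2 between them (Ets with interferon regulatory factor), and GGGA and CC with any 4 between them (NF-κB).
Pou2af1, chr9:51213440-51213689, plus strand: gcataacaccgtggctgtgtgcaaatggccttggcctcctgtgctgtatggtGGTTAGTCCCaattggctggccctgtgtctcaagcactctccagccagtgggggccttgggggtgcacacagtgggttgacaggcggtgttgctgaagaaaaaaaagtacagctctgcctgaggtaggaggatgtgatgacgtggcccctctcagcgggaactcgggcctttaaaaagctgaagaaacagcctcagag
Bcl6, chr16:23988853-23989102, minus strand: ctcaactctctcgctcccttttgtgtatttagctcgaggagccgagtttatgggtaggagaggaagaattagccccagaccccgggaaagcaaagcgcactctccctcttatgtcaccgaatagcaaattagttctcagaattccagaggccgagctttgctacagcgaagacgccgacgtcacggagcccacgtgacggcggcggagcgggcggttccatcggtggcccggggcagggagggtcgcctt
Bach2, chr4:32417185-32417434, plus strand: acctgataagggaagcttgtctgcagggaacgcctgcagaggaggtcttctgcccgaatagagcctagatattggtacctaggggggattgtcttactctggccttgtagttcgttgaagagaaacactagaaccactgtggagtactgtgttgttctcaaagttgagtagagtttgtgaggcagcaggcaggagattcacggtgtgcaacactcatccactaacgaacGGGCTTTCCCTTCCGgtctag
The Pou2af1 stretch held 1 match, to the NF-κB pattern on the reverse strand from -198 to -189 relative to the start. Of the 32851 promoter windows in the RefSeq table, each with 300 bases, 20.7% held this pattern. The Bcl6 stretch held none of the 8 patterns, whereas a second Bcl6 window at another start held the Ets with interferon regulatory factor pattern. The Bach2 stretch belongs to a start inside the annotated gene (chr4:32238804-32586108) and not to its 5′ end. Its capitals are 3 overlapping reverse-strand matches next to that internal start. They match the NF-κB pattern from -21 to -12, the Ets with interferon regulatory factor pattern from -17 to -8 (in 2.72% of all windows) and the Ets pattern from -12 to -7 (in 16.9%). Of the 10 genes, 8 had an entry in this table, with 12 windows in all, and Ets1 and Ikzf3 had none. The octamer was in 0 of the 12 windows and in 1.74% of all windows, and the NF-κB pattern was in 5 of the 12, those of Ebf1, Bach2, Irf8, Ikzf1 and Pou2af1. A match is a stretch of letters and not a site that was shown to be bound.

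The first question was how these genes moved when resting B-cells were stimulated with LPS. Ets1, Bcl6 and Ebf1 fell in all 3 genotypes, Pou2af1 rose in all 3, and the other 6 genes did not pass the test. In an edgeR quasi-likelihood fit over the 6 libraries with genotype as a block, 3 of the 10 genes fell and 1 rose at an adjusted p (Benjamini-Hochberg over the 14600 genes tested) under 0.05. Of all genes tested, 41.0% were called in this comparison, 20.4% lower and 20.7% higher, so that 4 of 10 was about the share of all genes. The median log2 change of the 10 genes was -0.40, against -0.03 for all genes tested. The error of this fit is the departure of the 3 genotypes from a common change rather than variation among animals. Past 2-fold were 3 of the 10 genes in wt (47.0% of all genes tested), 4 in Eμ-deficient (36.9%) and 3 in 3′RR-deficient B-cells (39.6%). In bulk RNA, fewer cells of a type and less RNA per cell cannot be told apart.

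**Figure D1:**
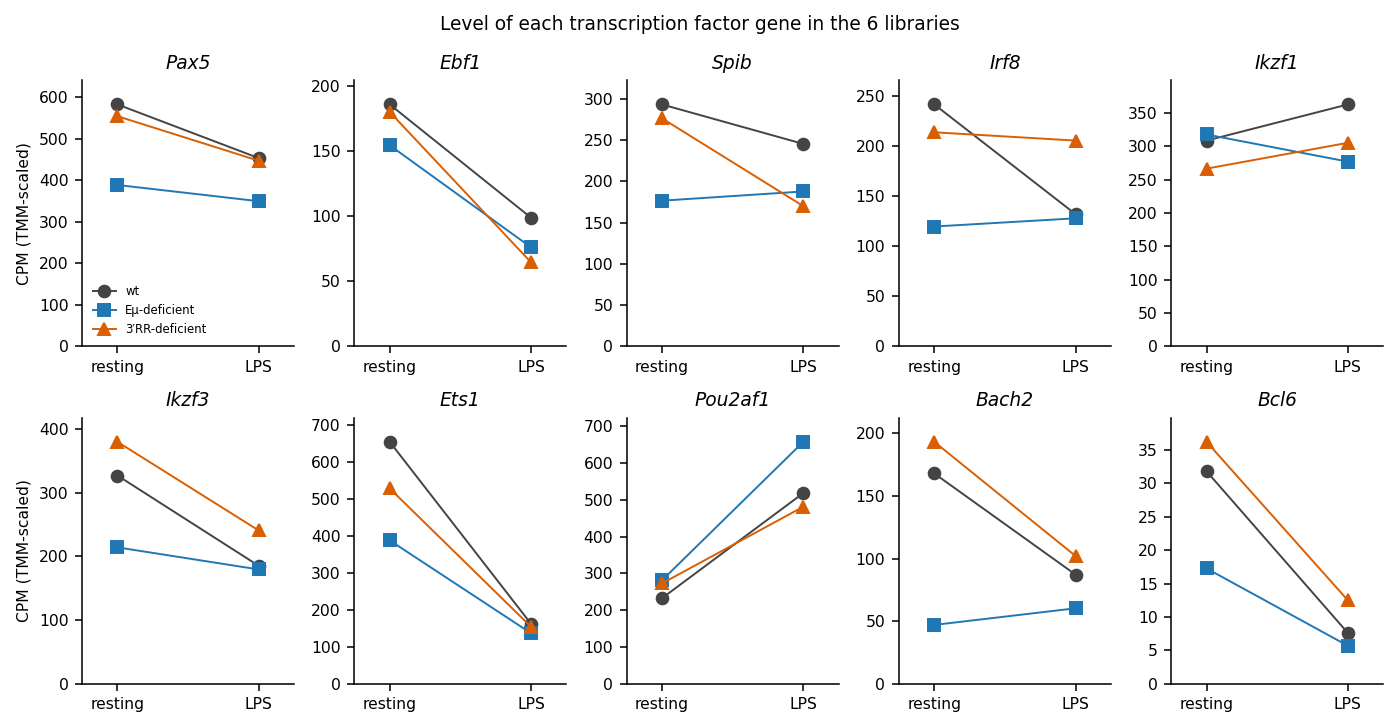
Level of each of the 10 genes (y axis, TMM-scaled CPM from 0) in the resting and the LPS-stimulated library (x axis), with 1 line per genotype and 1 library per point. Ets1, Bcl6 and Ebf1 slope down and Pou2af1 slopes up in all 3 genotypes, whereas the line of Bach2 slopes up in the Eμ-deficient libraries only, from 46.9 to 60.2 CPM.

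Ets1, an Ets family factor that restrains the differentiation of B-cells into plasma cells, and Bcl6 had the lowest fitted values, which differed by less than their SE. Ets1 lies on the plus strand of chromosome 9 (GRCm38, chr9:32636221-32757820, 11 merged exons). It had 655, 388 and 529 CPM in the resting wt, Eμ-deficient and 3′RR-deficient libraries, and 162, 136 and 154 CPM after LPS. The groups did not overlap, as for 26.1% of all genes tested with the LPS libraries lower, and the 3 LPS libraries lay much closer together than the 3 resting ones. The fitted log2 change was -1.77 (SE 0.27, edgeR quasi-likelihood test, adjusted p = 0.00097), a level 3.41-fold lower. It was -2.02 in wt, -1.51 in Eμ-deficient and -1.78 in 3′RR-deficient B-cells when the 2 libraries of each genotype were compared. Its paralog Ets2 fell further, from between 35.4 and 60.6 CPM to between 8.08 and 12.8 CPM (log2 change -2.34, SE 0.24, edgeR adjusted p = 0.000159).

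Bcl6, the repressor that directs the germinal centre reaction, lies on the minus strand of chromosome 16 (chr16:23965052-23988852, 8 merged exons) and was the lowest of the 10 genes. It had 31.8, 17.3 and 36.2 CPM in the resting wt, Eμ-deficient and 3′RR-deficient libraries, and 7.59, 5.67 and 12.5 CPM after LPS. Every LPS library was lower than every resting library. The fitted log2 change was -1.74 (SE 0.25, edgeR adjusted p = 0.000731), and the ratios within genotypes were -2.07 in wt, -1.61 in Eμ-deficient and -1.54 in 3′RR-deficient B-cells. The LPS-stimulated libraries held 151, 61 and 112 counts of Bcl6, which gives the ratio in Eμ-deficient cells a 95% interval from -2.04 to -1.20.

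Ebf1, the pioneer factor that opens B-lineage genes, lies on the plus strand of chromosome 11 (chr11:44617317-45008091, 17 merged exons). Its 3 resting libraries were close together, at 186, 155 and 180.1 CPM in wt, Eμ-deficient and 3′RR-deficient cells. After LPS they were at 98.8, 76.0 and 64.5 CPM, again with no overlap. The fitted log2 change was -1.14 (SE 0.25, edgeR adjusted p = 0.00587), or 2.20-fold lower. In 3′RR-deficient cells the ratio was -1.48, and -1.28 with the trend of the libraries on the GC content of transcripts removed. In wt the removal of that trend took the ratio from -0.91 to -1.33. The longest Ebf1 transcript has 43.05% GC, the lowest of the 10 genes, and the part of GC content in these ratios was otherwise not tested.

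Pou2af1 lies on the plus strand of chromosome 9 (chr9:51213708-51240080, 5 merged exons) and was the one gene of the 10 that rose. It had 232, 281 and 273 CPM in the resting wt, Eμ-deficient and 3′RR-deficient libraries, and 519, 658 and 481 CPM after LPS. The LPS libraries all lay above the resting ones, as for 25.7% of all genes tested. The fitted log2 change was 1.07 (SE 0.26, edgeR adjusted p = 0.0104), or 2.10-fold higher, and the ratios were 1.16 in wt, 1.23 in Eμ-deficient and 0.82 in 3′RR-deficient B-cells. Without the 2 Eμ-deficient libraries the log2 change was 0.97 and was no longer called (edgeR adjusted p = 0.175). Of the octamer-binding partners of this coactivator, Pou2f2 (Oct-2) rose from between 78.5 and 118 CPM to between 168 and 208 CPM (log2 change 0.98, SE 0.24, edgeR adjusted p = 0.00998), whereas the value of Pou2f1 (Oct-1) was -0.39 (SE 0.23, edgeR adjusted p = 0.198).

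**Figure D2:**
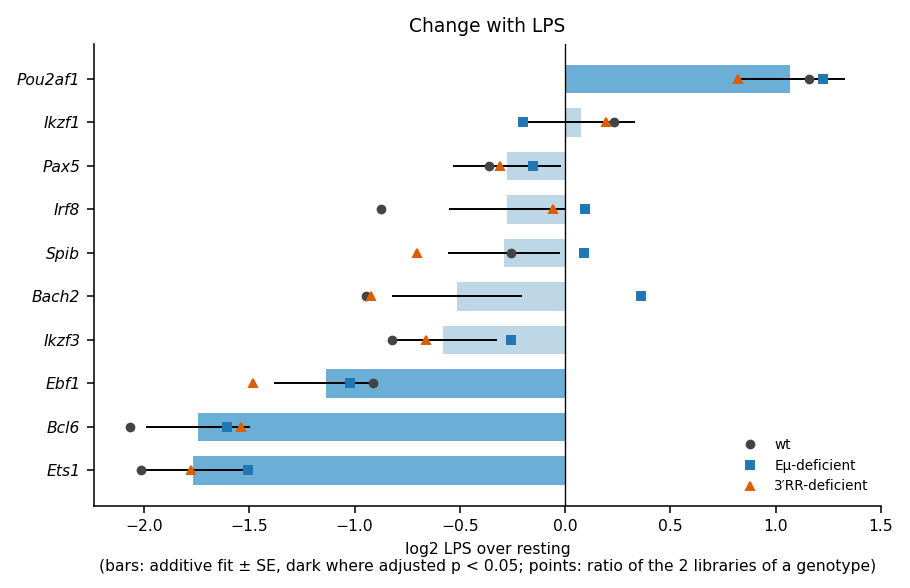
Change of each gene with LPS on a log2 scale (x axis); bars give the edgeR fit over the 6 libraries with its SE and are dark where the adjusted p is under 0.05, and points give the ratio of the 2 libraries of each genotype. Ets1, Bcl6 and Ebf1 lie between -1.77 and -1.14 with all points on 1 side of 0, Pou2af1 lies at 1.07, and the points of Bach2, Spib, Irf8 and Ikzf1 fall on both sides of 0.

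The other 6 genes gave fitted log2 changes from -0.58 to 0.08 and were not called. Pax5, which both activates B-cell genes and silences those of other lineages, had 582, 388 and 554 CPM in resting wt, Eμ-deficient and 3′RR-deficient cells, and 453, 349 and 447 CPM after LPS. It was lower after LPS within every genotype, but the groups overlapped (log2 change -0.28, SE 0.26, edgeR adjusted p = 0.412). Ikzf3 was likewise lower within every genotype, from 327, 214 and 380 CPM to 185, 179 and 240 CPM, with -0.58 (SE 0.26, edgeR adjusted p = 0.1). With the GC trend removed, Ikzf3 passed the threshold (log2 change -0.65, edgeR adjusted p = 0.0336). Ikzf1 was the most even of the 10 genes, between 267 and 363 CPM over the 6 libraries, a range of 1.36-fold, against 6.40-fold for Bcl6. The value of Ikzf1 was 0.08 (SE 0.26, edgeR adjusted p = 0.829).

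For Bach2, Spib and Irf8 the 3 genotypes did not move alike. Bach2 had 168 CPM in resting wt and 193 CPM in resting 3′RR-deficient cells, and 87.1 and 102 CPM after LPS, log2 ratios of -0.95 (95% interval -1.03 to -0.86) and -0.92 (-1.03 to -0.82). In Eμ-deficient cells it started at 46.9 CPM and had 60.2 CPM after LPS, a ratio of 0.36 (0.20 to 0.52). These intervals come from the exact conditional binomial distribution of the counts and cover counting error only. Spib had 293, 177 and 277 CPM in resting wt, Eμ-deficient and 3′RR-deficient cells, and 246, 188 and 170.0 CPM after LPS. Irf8 had 241, 120 and 214 CPM at rest, and 132, 128 and 205 CPM after LPS, so that the log2 ratio was -0.87 in wt while the ratios in both mutants lay within 0.10 of 0. Whether the genotypes differ in their change with LPS could not be tested, since such a model leaves no library to estimate the error.

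On the same strand as their host gene and with no base in its exons, 4 genes annotated in introns of Pax5, Bach2 and Ikzf3 were counted. Bach2it1, a sense transcript within an intron of Bach2 (chr4:32251761-32265835), had 12.8, 6.35 and 14.0 CPM in the resting wt, Eμ-deficient and 3′RR-deficient libraries, and 3.52, 2.79 and 2.12 CPM after LPS. It was thus lower in the Eμ-deficient than in the wt library at rest, by a log2 ratio of -1.01 (95% interval -1.39 to -0.65), in the same direction as Bach2 itself. Unlike Bach2, it was lower after LPS in Eμ-deficient cells too, with a ratio of -1.19 (-1.84 to -0.57). Mir5120, a microRNA gene on the same strand as Pax5 and within an intron of it, had 75, 52 and 84 counts at rest and 38, 20 and 12 counts after LPS. Its ratio to wt at rest was -0.11 (-0.65 to 0.42) in Eμ-deficient cells, an interval that includes 0, and -0.58 (-0.63 to -0.54) for Pax5. Gm24371, in another intron of Bach2, had 100, 52 and 260 counts at rest and 101, 30 and 36 counts after LPS, and Gm25106, in an intron of Ikzf3, had 47, 36 and 57 counts at rest and 26, 13 and 10 counts after LPS. These low counts do not all follow the host gene. In total RNA, they cannot be told apart from reads of unspliced RNA of the host gene. Since multi-mapping reads were counted, reads of similar sequences elsewhere can enter as well.

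The levels of the 10 genes were compared with one another per kilobase of merged exon. Averaged over the 6 libraries, Pou2af1 was highest at 159.8 CPM per kb, followed by Spib (78.4), Ikzf1 (53.1), Pax5 (52.2), Ets1 (39.8), Ikzf3 (29.0), Irf8 (24.6), Ebf1 (13.0), Bach2 (11.0) and Bcl6 (2.76). The range from the highest to the lowest was 57.9-fold. With the longest transcript as length the order changed, with Ets1 at 66.4 CPM per kb, above Ikzf1 (59.4) and Pax5 (57.8), and with Ikzf3 at 55.2 and Irf8 at 49.9. The ranges of all 9 pairs of neighbours in this order overlapped, and Ikzf1 exceeded Pax5 in 4 of 6 libraries, Ets1 exceeded Ikzf3 in 3 of 6 and Ebf1 exceeded Bach2 in 4 of 6. Spib exceeded Ikzf1, Irf8 exceeded Ebf1 and Bach2 exceeded Bcl6 in 6 of 6. Within single libraries, Ets1 held rank 3 or 4 at rest and rank 6 or 7 after LPS. Pou2af1 had rank 1 in all libraries but the resting wt one, where Spib, at 102 CPM per kb, lay above it, at 91.2. The ratio of Pou2af1 to Ets1 per kb of exon went from 1.18, 2.41 and 1.72 in resting wt, Eμ-deficient and 3′RR-deficient cells to 10.7, 16.0 and 10.4 after LPS. The pairwise comparisons, ranks and ratios of single libraries given here all use merged exons. With the longest transcript, which raises the mean of Ets1 from 39.8 to 66.4 CPM per kb, they were not determined and can differ.

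**Figure D3:**
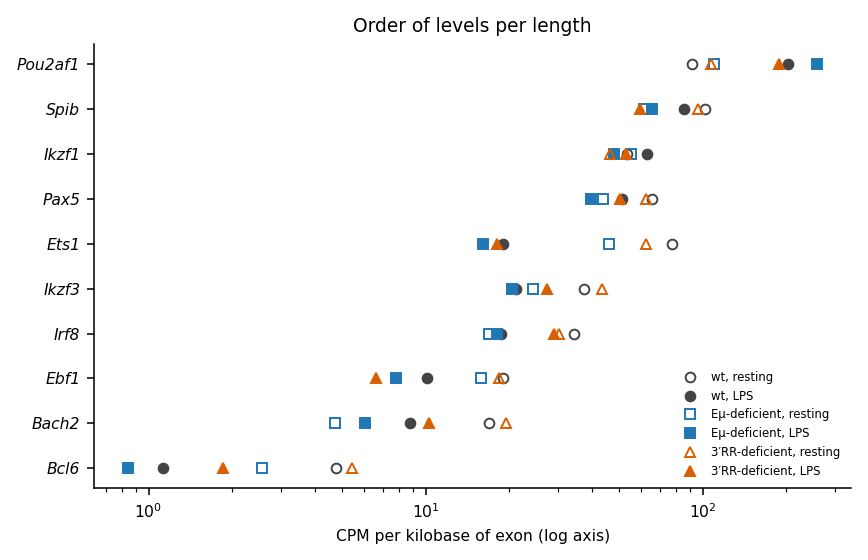
Level of each gene per kilobase of exon (x axis, CPM per kb, log axis), with genes ordered by their mean over the 6 libraries, open symbols for resting and filled symbols for LPS-stimulated libraries. Pou2af1 reaches from 91.2 to 258 CPM per kb and Bcl6 from 0.85 to 5.41, and the filled symbols of Ets1 lie left of all its open ones.

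The second question was whether loss of an IgH enhancer went along with another level of these genes. In the additive fit of genotype and culture state over the 6 libraries, 0 of the 10 genes were called in either mutant. For 3′RR-deficient against wt the adjusted p ran from 0.920 to 0.984, 0 genes had an unadjusted p under 0.05 (5.65% of all genes tested) and the DESeq2 Wald test called 0, while 0.76% of all genes tested were called. For Eμ-deficient against wt the adjusted p ran from 0.303 to 0.946, 1 gene (Bach2) had an unadjusted p under 0.05, where 8.36% of all genes tested had one, and DESeq2 called 0, while 1.14% of all genes tested were called. A p above the threshold does not show equal levels.

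In the resting 3′RR-deficient library the 10 genes lay within log2 ratios of -0.31 (Ets1) and 0.23 (Pou2af1) of wt. None was past 2-fold, where 9.27% of all genes tested were, and the median of the 10 was -0.06 against -0.01 for all genes. Pax5 had a ratio of -0.07 (95% interval -0.11 to -0.03) and Ebf1 of -0.05 (-0.11 to 0.02). After LPS the ratios to wt ran from -0.62 for Ebf1 to 0.72 for Bcl6, again with none past 2-fold, where 26.5% of all genes were. Irf8 was higher than wt, with 205 against 132 CPM and a ratio of 0.64 (0.55 to 0.73), Bcl6 likewise with 12.5 against 7.59 CPM and a ratio of 0.72 (0.35 to 1.08), and Spib was lower, with a ratio of -0.53 (-0.61 to -0.45). After removal of the GC trend, Ebf1 had a ratio of -0.05 and Spib of -0.99, whereas those of Irf8 and Bcl6 were 0.43 and 0.60. Between these 2 LPS libraries the spike-in RNAs spread from -3.37 to 1.4 around their median. All 10 genes had ratios inside those bounds, but so did most of all genes tested, since 26.5% were past 2-fold. The bounds thus tell nothing particular of the 10 genes. Over both culture states, 5 genes were lower in the 3′RR-deficient library in both (22.5% of all genes tested), 3 were higher in both (22.0%), and 2 had opposite signs (55.5%).

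In the resting Eμ-deficient library, 8 of the 10 genes were lower than in wt, where 50.5% of all genes tested had a ratio below 0. Each of the 8 had a counting interval below 0, but the share of all genes with such an interval was not determined. All 10 genes together had a median of -0.67, against -0.01 for all genes. Bach2 stood furthest from wt, with 636 counts (46.9 CPM) against 3036 counts (168 CPM), a ratio of -1.84 (95% interval -1.97 to -1.72) or 3.58-fold lower. Irf8 was 2.02-fold lower, with 120 against 241 CPM and a ratio of -1.01 (-1.10 to -0.93). These were the 2 genes past 2-fold, where 18.2% of all genes tested were past 2-fold and 6.2% past 2-fold lower. Bcl6 (-0.88), Ets1 (-0.76), Spib (-0.73), Ikzf3 (-0.61), Pax5 (-0.58) and Ebf1 (-0.27) followed, whereas Ikzf1 had a ratio of 0.04 (-0.01 to 0.10) and Pou2af1 of 0.27 (0.21 to 0.34). The spike-in RNAs between these libraries ranged from -0.47 to 1.3 around their median, which is technical scatter and holds no variation among animals. With the GC trend removed, the ratio of Bach2 was -1.79, that of Irf8 -0.80 and that of Spib -0.36.

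**Figure D4:**
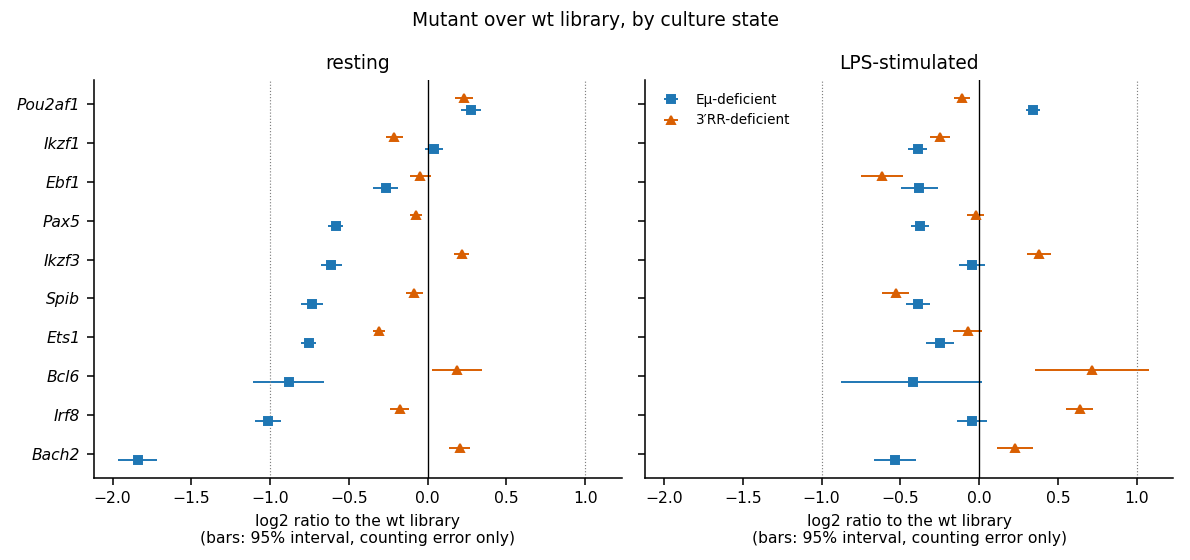
Log2 ratio of the Eμ-deficient (squares) and 3′RR-deficient (triangles) library to the wt library (x axis) for each gene in resting (left) and LPS-stimulated (right) cells, with 95% intervals of counting error and dotted lines at 2-fold. In resting cells 8 of the 10 squares lie left of 0, with Bach2 at -1.84, while the triangles lie between -0.31 and 0.23.

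The same library differed from wt in its cell markers as well. Its B-cell marker sum was lower, by a log2 ratio of -0.41, with 5 of the 6 marker genes below 0 and ratios from -1.12 (Cd79a) to 0.34 (Ms4a1). Its erythroid and myeloid sums were higher, as given above. The 9 plasma cell program genes summed to 2330 CPM against 635 CPM, most of it from Jchain, the joining chain of secreted antibody, with 1691 against 114 CPM. The 5 genes of follicular B-cells were each lower and summed to 529 against 839 CPM, among them Fcer2a (CD23) with 62.6 against 119 CPM. Among genes of marginal zone B-cells, Cr2 (CD21) had 713 against 396 CPM and Cd1d1 71.4 against 28.2 CPM. S1pr3, Cd9 and Myof were higher as well, whereas Notch2 had 255 against 447 CPM and Dtx1 199 against 268 CPM. The 7 genes of the marginal zone list summed to 1400.0 against 1232 CPM. The part of this makeup in the levels of the 10 genes was not tested.

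After LPS the Eμ-deficient library lay closer to wt. The 10 genes had a median of -0.38 and 9 of 10 were below 0 (54.7% of all genes tested), with none past 2-fold (12.5% of all genes tested). An interval below 0 was found for 6 of those 9, and the share of all genes with one was again not determined. Bach2 had a ratio of -0.53 (95% interval -0.67 to -0.40), Ikzf1 of -0.39 (-0.45 to -0.33), Spib of -0.39 (-0.46 to -0.31) and Pax5 of -0.38 (-0.43 to -0.32). The ratios of Irf8 and Ikzf3 were both -0.05, with intervals that include 0, and both were 0.08 with total count scaling. Over both culture states 8 genes were lower in both, where 28.2% of all genes tested were, and Pou2af1 was higher in both, where 22.9% were. In the additive fit Bach2 had a log2 fold change of -1.14 (SE 0.38, edgeR adjusted p = 0.303) and Bcl6 of -0.67 (SE 0.30, edgeR adjusted p = 0.6). Without a filter on low counts the adjusted p of Bach2 was 0.0489, and it was 0.054 without the 3′RR-deficient libraries.

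Other transcription factors of B-cells gave a background to these changes. Of a list of 25, 24 were tested, and with LPS 5 rose, 6 fell and 13 did not pass the test, beside 20.7% higher and 20.4% lower among all genes tested. Prdm1 rose the most, from 9.68, 19.8 and 5.61 CPM in resting wt, Eμ-deficient and 3′RR-deficient cells to 75.1, 100.1 and 87.3 CPM (log2 change 3.07, SE 0.33, edgeR adjusted p = 0.0002). Xbp1, a factor of the secretory program that Blimp-1 relieves from repression, rose by 1.89 on the log2 scale (edgeR adjusted p = 0.000491). Id3, an inhibitor of E proteins, rose by 1.35, and Myb by 1.27. Bach1, the paralog of Bach2, fell from between 29.1 and 45.5 CPM to between 11.8 and 17.0 CPM (edgeR adjusted p = 0.00184), as did Foxo1 (log2 change -1.31), Ciita, the master regulator of MHC class II genes (-1.68), Lef1 (-1.85), Runx1 (-0.99) and Spi1, which encodes PU.1 (-0.79, edgeR adjusted p = 0.0184). Irf4, the paralog of Irf8 that is needed for plasma cells, was between 281 and 382 CPM in all 6 libraries and was not called (log2 change -0.10, SE 0.26, edgeR adjusted p = 0.78). Per kb of merged exon Irf4 exceeded Irf8 in every library, by 2.23-fold to 4.30-fold. With the longest transcript as length the mean of Irf8 was 49.9 instead of 24.6 CPM per kb, and the ratio to Irf4 was not determined. The value of Tcf3, which encodes E2A, was 0.45 (edgeR adjusted p = 0.194). No gene of this list was called in either mutant.

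Because Bach2 and Bcl6 are known repressors of Prdm1, the levels of these genes were set side by side. Per kb of exon, the ratio of Prdm1 to Bcl6 was 0.37, 1.38 and 0.19 in resting wt, Eμ-deficient and 3′RR-deficient cells, and 11.9, 21.2 and 8.41 after LPS. The ratio of Prdm1 to Bach2 was 0.10, 0.75 and 0.052 at rest, and 1.54, 2.96 and 1.53 after LPS. In both pairs the Eμ-deficient library had the highest ratio in each culture state. The ratio of Prdm1 to Pax5 stayed below 1 in all libraries, from 0.016 to 0.46. It too was highest in the Eμ-deficient library, at 0.081 at rest (0.026 in wt) and 0.46 after LPS (0.26 in wt), so that this order was not particular to the 2 repressors. Prdm1 itself was highest in the Eμ-deficient library of each culture state, with 19.8 CPM at rest and 100.1 CPM after LPS.

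Of 14 surface and signalling genes of B-cells, among them known targets of Pax5 and Ebf1, 8 fell with LPS and none rose, with a median log2 change of -0.73, beside 20.4% lower, 20.7% higher and a median of -0.03 among all genes tested. These lists were chosen with earlier results of these data known. Cr2 fell the most (log2 change -2.52, SE 0.32, edgeR adjusted p = 0.000445), followed by Blk, a Src family kinase (-1.73), Vpreb3 (-1.64) and Fcer2a (-1.16). Bank1, Cd72, Cd22 and Fcrla fell by less, with -0.96, -0.89, -0.78 and -0.69. Cd79a (-0.67, edgeR adjusted p = 0.0854) and Blnk, the adaptor downstream of the B-cell receptor (-0.18, edgeR adjusted p = 0.579), were not called. None of the 14 was called in a mutant. In the plasma cell program, 5 of 9 genes rose with LPS (20.7% of all genes tested) and none fell, Prdm1, Xbp1, Mzb1, Ell2 and Creb3l2.

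**Figure D5:**
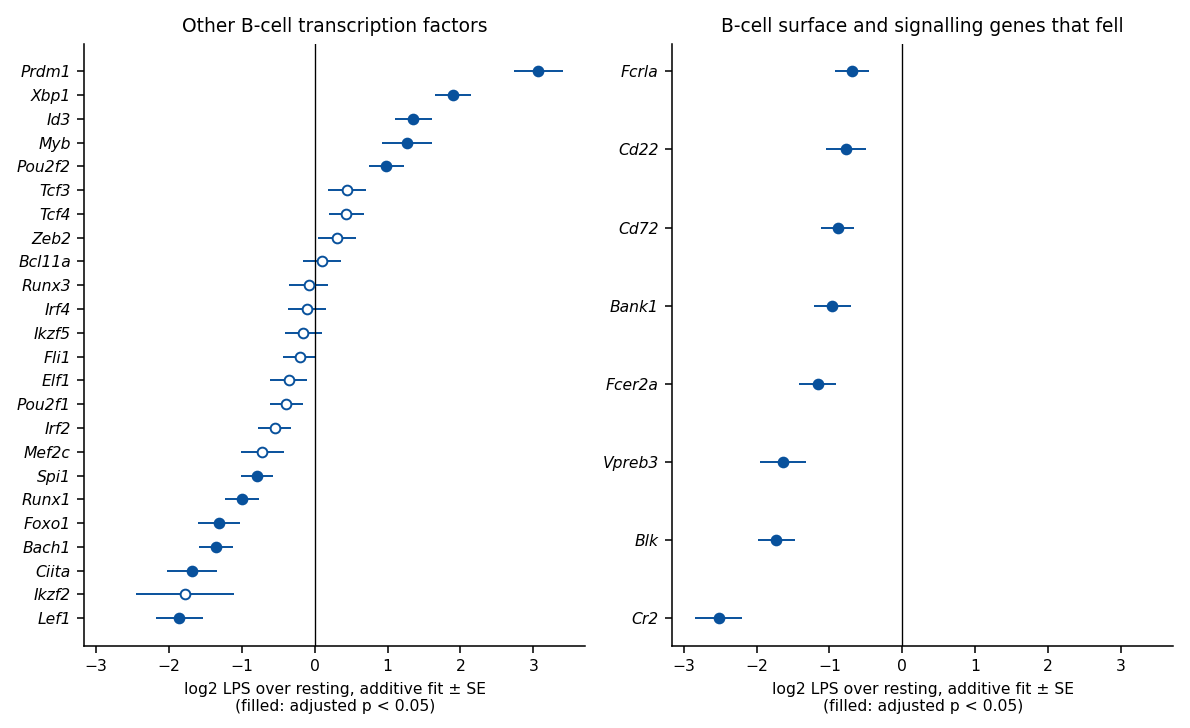
Log2 change with LPS (x axis, edgeR fit over 6 libraries ± SE, filled where the adjusted p is under 0.05) of 24 other B-cell transcription factors (left) and the 8 surface and signalling genes that fell (right). Prdm1 at 3.07 and Xbp1 at 1.89 lie furthest to the right, and the surface and signalling genes reach from Fcrla at -0.69 to Cr2 at -2.52.

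Among the paralogs of the 10 genes, 9 of 16 were tested and the others had too few counts. Spic, an Ets factor of red pulp macrophages and close relative of Spib, fell with LPS from 4.81, 30.2 and 11.7 CPM in resting wt, Eμ-deficient and 3′RR-deficient cells to 0.151, 1.3 and 0.446 CPM (edgeR adjusted p = 5.6e-05), and was the one paralog called in a mutant, higher in Eμ-deficient libraries (log2 fold change 2.76, edgeR adjusted p = 0.0158). The resting Eμ-deficient library, where Spic was highest, also had the highest erythroid and myeloid marker sums, whose part was not tested. Between the resting wt and 3′RR-deficient libraries the myeloid sum was even, at 153 and 152 CPM, but single myeloid genes went in both directions. Their part in the level of Spic was not tested either. Per kb of exon, Spi1 stayed at 0.099 to 0.21 of the level of Spib.

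Profiles over the 6 libraries were compared by the distance of centred log2 CPM among genes with a mean of at least 10 CPM. The closest gene to Ets1 was Lats2 (distance 0.23), to Ebf1 Phf21a (0.17), to Bcl6 Jakmip1 (0.27), to Pou2af1 Tmem242 (0.22), to Pax5 Recql5 (0.15) and to Ikzf3 Ttpal (0.14). The closest to Bach2 was Chst3, at 0.40. Among the 10 genes, Ets1 and Ebf1 had a Pearson r of 0.96, Bcl6 and Ikzf3 of 0.94, and Ets1 and Bcl6 as well as Bach2 and Pax5 of 0.93. The lowest values were -0.98 for Ets1 and Pou2af1 and -0.94 for Bcl6 and Pou2af1. All are over 6 libraries that share the split into resting and LPS-stimulated cells. By distance, Irf8 (0.99) was nearer to Bach2 than Pax5 was (1.22).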

How the data were processed

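Gene counts of 6 libraries were used. The authors removed ribosomal RNA, made stranded total RNA libraries, mapped paired reads of 150 nt to mm10 with STAR 2.4.0a, and counted fragments per gene name of Ensembl release 77 with featureCounts (Subread 1.4.6-p1), on 1 strand and with multi-mapping reads, so that paralogs can exchange reads. The deposited values are raw counts. The sources differ on the mice: the labels give 1 pool of 2 per library, the methods 2 pools from 4 per genotype. The 92 spike-in RNAs, between 4.75% and 7.10% of the counts, did not enter library sizes or tests. Antisense genes overlapping the 10 genes held at most 39 counts in a library.

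Counts were scaled with TMM and fitted with the quasi-likelihood test of edgeR 4.0.16 (R 4.3.3) on genotype and culture state as additive terms, for genes that reached 10 counts in 2 or more libraries. The p-values were adjusted by Benjamini and Hochberg's method, and calls needed an adjusted p under 0.05; the SE is the log2 fold change divided by the root of F. Ratios of 2 libraries carry exact conditional binomial (Clopper-Pearson) 95% intervals from scipy 1.17.1, which hold counting error alone, because each group is 1 library. Reads were amplified and carry no molecular identifiers, so that the intervals can be too narrow even for counting error. Exon length, GC content and positions come from GENCODE M21 (GRCm38, the build of mm10), which held 44131 of the 47055 names, and 782 more by a synonym. Trends on GC content and transcript length were removed with lowess. The fit was tested on simulated data. There, a 2-fold change was called for 6% of the changed genes with LPS, 14% in 3′RR-deficient and 2% in Eμ-deficient libraries. For a 4-fold change these shares were 80%, 58% and 70%, so that the fit missed most of the simulated 2-fold changes. In each simulation 50 of the 14600 genes were changed at each fold size and most genes not at all. In the data 41.0% of all genes tested were called with LPS. The adjusted p is then less strict, and the simulated shares for LPS do not carry over to that fit.

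The 10 genes and all lists were chosen with earlier results of these data known. Named were the 10 genes, 11 further genes in all cases, genes of a list that passed the test (at most 8 per list by p), markers, and for each of the 10 genes its nearest profiles. Pou2f1, Myb, Cd79a, Jchain, Cd1d1, S1pr3, Cd9, Myof, Ms4a1 and the intronic transcripts were named after their values were seen. Alternatives were total count scaling, DESeq2 size factors, the DESeq2 1.42.0 Wald test, log2(CPM + 1), 2 other filters, removal of each trend, no genotype block, leaving out each genotype, and the length of the longest transcript. Single values of 2 marker genes are not reported here.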

Additional observations from a re-analysis of the deposited data

Results flagged for a closer look

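The genes listed here had ratios of opposite sign in 2 groups with both counting intervals clear of 0. None of these differences was tested, since each group is 1 library.

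With LPS, Bach2 was lower in wt and in 3′RR-deficient B-cells and higher in Eμ-deficient B-cells. The log2 ratio of Eμ-deficient cells exceeded that of wt by 1.31, and that of 3′RR-deficient cells differed from that of Eμ-deficient cells by -1.28. The difference rests on the resting Eμ-deficient library, where Bach2 had 46.9 CPM. Spib moved the same way with smaller values, 0.35 for Eμ-deficient minus wt and -0.79 for 3′RR-deficient minus Eμ-deficient. With the GC trend removed, the ratio of Spib with LPS was 0.13 in wt and -0.01 in Eμ-deficient cells, and with the length trend removed it was -0.29 and -0.01.

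Ikzf1 went the other way, lower with LPS in Eμ-deficient cells and higher in the others, with differences of -0.43 to wt and 0.39 between the mutants. With total count scaling its ratio in wt was -0.08. In 3′RR-deficient against wt cells, Irf8 was lower at rest and higher after LPS, a difference of 0.82, and Pou2af1 was higher at rest and lower after LPS, a difference of -0.34. With total count scaling these ratios of Pou2af1 were 0.07 and 0.02, with no change of sign.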

How the results depend on the processing

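The falls of Ets1, Bcl6 and Ebf1 with LPS were called in all 12 fits, and the rise of Pou2af1 in 11 of 12. Leaving out the libraries of a genotype left 0 to 1 gene called higher, 0 without Eμ-deficient, and 3 to 4 called in all. Ikzf3 passed the threshold in 2 fits. Scaling by the total count moved the median fitted change of all genes with LPS, over the 3 genotypes, to -0.16. In wt alone 6 of the 10 genes were then past 2-fold, against 3. The share of all genes past 2-fold in wt with this scaling was not determined. Bach2 was called lower in Eμ-deficient libraries without a filter on low counts (1 gene, against 0), where 605 genes in all were called against 167. In the resting Eμ-deficient library 1 gene instead of 2 was past 2-fold with DESeq2 size factors and with either trend removed, settings for which the share of all genes was not determined either. With the longest transcript as length, the highest level was 34.0-fold the lowest, not 57.9-fold. Uncalled changes with LPS turned sign for Pax5 (0.039 with the length trend removed), Irf8 (from -0.48 to 0.019 with a genotype left out) and Ikzf1 (-0.048 with total counts, and from -0.034 to 0.20, with -0.00082 without wt, when a genotype was left out), and in 3′RR-deficient libraries for Pax5 (0.00012 with DESeq2, 0.015 with the length trend removed). The cause was not tested. Without the genotype block the same number of genes, 3 lower and 1 higher, was called with LPS. The genotype block already pairs the resting and the LPS library of each genotype, and no further replicate block could be fitted because the labels give no replicate numbers. With total counts, the ratio of Ikzf1 with LPS in wt changed sign, as did its ratio to wt in resting Eμ-deficient cells (-0.11). After LPS, the ratios to wt of Irf8 and Ikzf3 in Eμ-deficient cells changed sign too (both 0.08). So did those of Pax5 (0.10), Ets1 (0.05) and Pou2af1 (0.02) in 3′RR-deficient cells. Over all genes, 5991 were called with LPS, and 3915 without the Eμ-deficient libraries. In Eμ-deficient libraries 167 were called, 340 with DESeq2, 605 without a filter and 503 without the 3′RR-deficient libraries. In 3′RR-deficient libraries 111 were called, 178 with DESeq2, 339 without a filter and 178 without the Eμ-deficient libraries.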
